A study of Mus musculus with 16 samples.

Results

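The collagen chain genes are the 44 of 23999 gene symbols in the count table that consist of Col, a number, the letter a and a second number, with nothing after it. They were sorted by the kind of assembly their chains build: 11 fibrillar, 8 basement membrane, 9 network-forming and 16 other chains. The choice used names only, not measured values. Transcripts were read in myeloid sarcomas, solid masses of leukaemia cells outside the marrow, and in leukaemia-infiltrated whole bone marrow of mice that all carried NPM1cA, a mutant form of nucleophosmin that is mislocalised to the cytoplasm. Sarcomas came from 4 NPM1cA/SMC3+/- mice, called 948 and 2721 (2 tumours each), 1267 and 1268_1270, and marrow came from 9 NPM1cA/SMC3+/- mice, so both tissues were heterozygous for Smc3, which encodes a core cohesin subunit. A further sarcoma, of mouse 841, was labelled NPM1cA alone, and no marrow carried that label. Mice 1267 and 2721 gave both tissues. Whether 1268_1270 is a single animal or a pool of 2 cannot be read from its label, and it entered as 1. The sources used here do not state age, sex, treatment or the promoters that drive the alleles.

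Collagens are triple-helical proteins of the extracellular matrix. Fibrillar chains assemble into the cables that give connective tissue its tensile strength, type IV chains form the sheet-like scaffold of basement membranes around vessels, fat cells and muscle fibres, and type VI chains form beaded microfilaments around cells. Fibroblasts, bone-forming cells, smooth muscle and adipocytes are the usual makers, while blood cells express few of these genes. In marrow, collagen is laid down by stromal and bone-lining cells, which are a small part of the cells crushed out of bone.

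Libraries held 9797201 to 39197660 counts. Levels are CPM, counts scaled to a fixed library total. In marrows 737, 779 and 782 and tumour 1 of mouse 948, transcripts over 6 kb were low, with median log2 deviations from the middle library of -2.17, -2.24, -1.98 and -1.21. The other 12 libraries lay between -0.92, in marrow 1267, and 0.61. Marrow 1267 is paired with a sarcoma of the same mouse. It was not counted as low and stayed in the fits that left low libraries out. Sarcoma 1268_1270 also stood apart: its 8 adipocyte markers summed to 41730 CPM, against 39.6 to 660 CPM in the other 6 sarcoma libraries. Its 15 pan-leukocyte markers summed to 775 CPM, against 8300 to 11020 CPM in those libraries and at least 10340 CPM in every marrow. The 12 myeloid leukaemia markers summed to 1203 CPM, against 15190 to 44330 CPM in those libraries and at least 21230 CPM in every marrow. Of these 12, Cd34 and Meis1 were instead higher in 1268_1270 than in the other 3 SMC3+/- sarcoma mice. Adipoq, an adipocyte hormone, had 4485 CPM there and at most 21.7 CPM in the other 3 sarcoma mice. In whole tissue, fewer cells of a type and less RNA per cell cannot be told apart.

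Of the examples below, Col3a1 and Col1a2 rose in sarcomas, while Col5a1 and Col6a4 had reads in both tissues and were not called. For each, the 150 bases before the transcript start are given 5′ to 3′. They are RefSeq sequences on GRCm38.p6, a later build than the mm9 named for the deposited counts, and capitals mark TATAAA or CCAAT on either strand.
Col3a1, chr1:45311388-45311537, forward strand: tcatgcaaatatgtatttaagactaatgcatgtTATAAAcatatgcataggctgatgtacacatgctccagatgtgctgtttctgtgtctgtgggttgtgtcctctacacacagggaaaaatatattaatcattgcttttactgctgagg
Col1a2, chr6:4505468-4505617, forward strand: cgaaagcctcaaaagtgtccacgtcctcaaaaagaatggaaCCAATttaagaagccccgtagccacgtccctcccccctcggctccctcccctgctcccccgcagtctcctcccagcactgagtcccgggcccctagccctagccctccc
Col5a1, chr2:27886275-27886424, forward strand: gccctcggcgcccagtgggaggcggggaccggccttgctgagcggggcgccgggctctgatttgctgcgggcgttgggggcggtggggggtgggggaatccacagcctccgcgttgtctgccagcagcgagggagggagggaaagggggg
Col6a4, chr9:106096692-106096841, reverse strand: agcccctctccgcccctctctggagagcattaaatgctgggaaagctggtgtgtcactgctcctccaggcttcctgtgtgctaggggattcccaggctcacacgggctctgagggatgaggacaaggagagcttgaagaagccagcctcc
RefSeq promoters were matched by symbol for 35 of the 44 genes. TATAAA, on either strand within 250 bases before the start, was present in 5 of these 35 (Col3a1, Col10a1, Col11a2, Col13a1 and Col17a1), and in 12.4% of all 32851 promoters. CCAAT, which can share no more than an end base with TATAAA, was present in 13 of the 35 and in 33.8% of all promoters. Col1a2 and Col6a4 are among the 13, and the match of Col6a4 lies outside the 150 bases printed. The printed examples thus do not stand for genes that rose or were not called. Among the 12 matched genes that rose in sarcomas, 1 held TATAAA and 5 held CCAAT. Among the other 23 the counts were 4 and 8. A match is a run of letters and no evidence of binding. All 44 genes were found in RefSeq's gene order, and 15 of them sat beside another collagen gene, in 8 neighbouring pairs. Col3a1 and Col5a2, Col6a1 and Col6a2, and Col4a1 and Col4a2 are such pairs in which both genes rose. Col4a1 and Col4a2 start head to head, and their 300-base promoter windows share 78 bases.

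Collagen transcripts were scarce in marrow and abundant in sarcomas. Summed over the 44 genes, the marrows held 2.995 CPM at the lowest, 87.8 CPM at the median and 298 CPM at the highest. The sarcoma mice held 504 CPM (948), 3053 CPM (1267), 9528 CPM (1268_1270) and 1847 CPM (2721). Every sarcoma mouse was above every marrow in this sum, although tumour 1 of mouse 948 on its own, with 121 CPM, lay among the marrows. Even in 1268_1270 the sum was 0.953% of all counts, and in the median marrow it was 0.00878%. The 3 lowest marrows, at 2.995, 10.7 and 9.48 CPM, were 737, 779 and 782, the ones low in long transcripts, and the part of that property in their low collagen level was not tested.

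**Figure D1:**
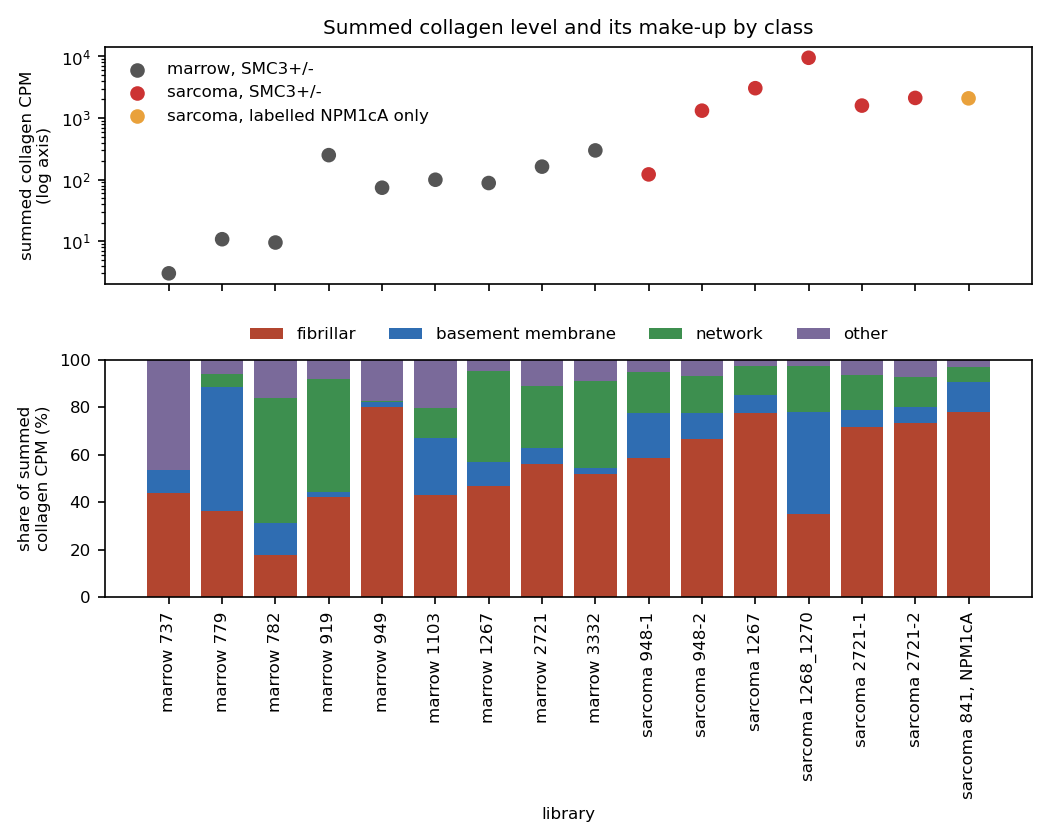
Upper panel: summed CPM of the 44 collagen genes in each library, on a log axis. Lower panel: share of that sum by collagen class, in percent. Sarcoma libraries reach 121 to 9528 CPM against 2.995 to 298 CPM in marrow, and sarcoma 1268_1270 has the largest basement membrane share among the sarcomas.

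Against the marrows, 16 collagen genes rose in sarcomas and 0 fell (edgeR quasi-likelihood test, Benjamini-Hochberg adjusted p under 0.05 over 14730 genes). Of the 44 genes, 37 passed the filter on low counts, and the 16 are 43.2% of those. No collagen was lower at an unadjusted p under 0.05 either, and DESeq2 and limma-voom also called 0 lower. Over all genes 4.55% were called in either direction and 4.49% were called higher. The median log2 fold change was 4.28 over the 37 and 0.07 over all genes. These counts describe the members and do not support a claim about them, because the mean over marrows was below 1 CPM for 22 of the 37 and for 11 of the 16, so that such a gene could pass the filter mainly through the sarcomas. In 13 of the 37, or 35.1%, every sarcoma mouse was above every marrow, and over all genes tested that held for 3.82%. Here and below, overlap was judged with the tumours of a mouse summed. Of these genes, Col1a1, Col4a2, Col15a1, Col18a1, Col6a1 and Col16a1 were below the highest marrow in tumour 1 of mouse 948 on its own. Without sarcoma 1268_1270 the count of calls fell to 7 of 38 tested collagens (18.4%, with 1.13% of all genes called), their median log2 fold change fell to 2.62, and the 16 genes lay between 3.63 and 9.84 in place of 4.86 to 10.28. With the 4 libraries poor in long transcripts removed too, 7 were called at a median of 2.31, and 0.410% of all genes. The 7 were Col1a1, Col3a1, Col5a2, Col4a1, Col6a2, Col12a1 and Col14a1. Without those 4 low libraries alone, 13 of the 16 kept the call. With the mouse as a replicate block, where only mice 1267 and 2721 inform the contrast, 9 genes were called (24.3%, with 0.883% of all genes), and with those 2 mice alone 10. This blocked fit leaves 1 residual degree of freedom and its calls turn on how tumours enter: with the 2 tumours of a mouse kept apart and the same block, edgeR called 0 of 29 collagens (17 at an unadjusted p under 0.05) and 0 of all 13962 genes (1611 unadjusted), and the 15 called collagens with a value there were still higher in sarcomas. DESeq2 and limma-voom were not run with the block. The block over all mice, with tumours summed, lost Col4a2, Col15a1, Col6a1, Col6a3, Col8a1, Col12a1 and Col28a1. When libraries were scaled to pan-leukocyte genes, 26 of the 37 collagens, or 70.3%, were called, as were 51.0% of all genes, at medians of 6.72 and 1.99.

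**Figure D2:**
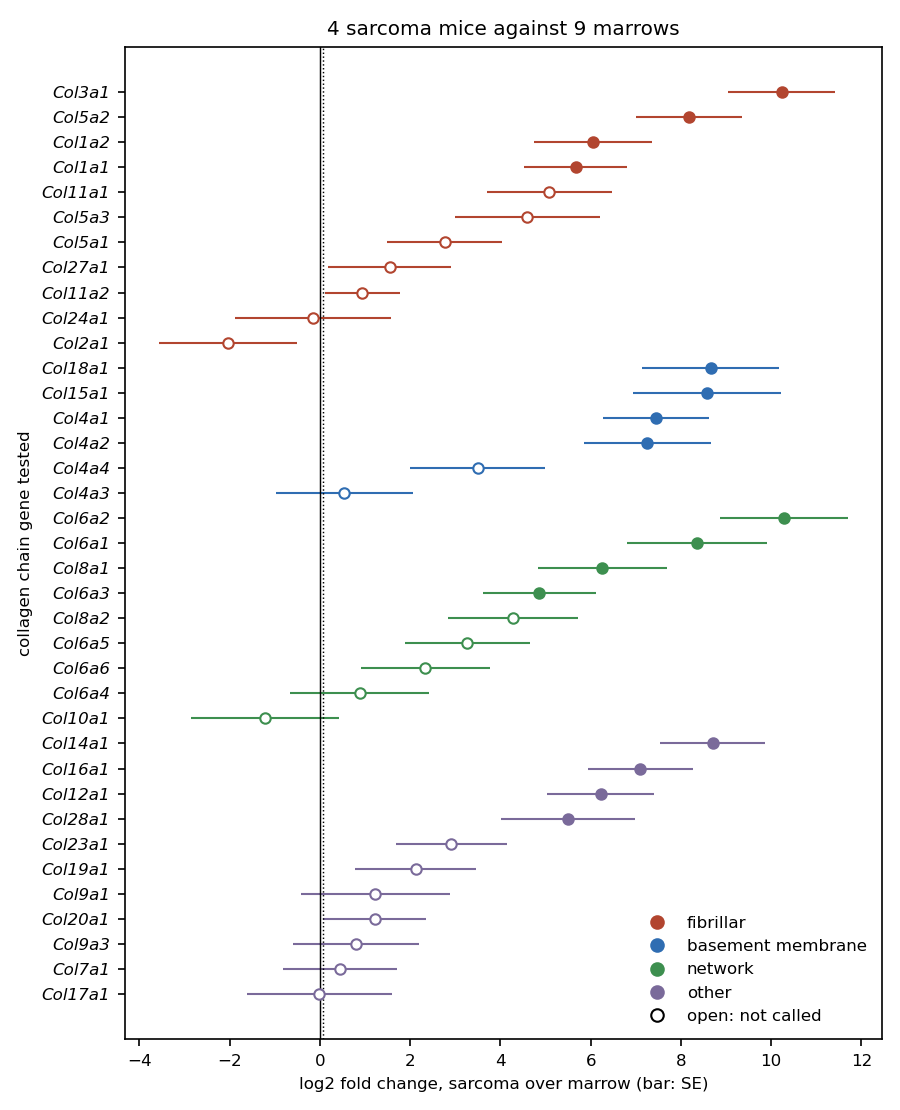
Log2 fold change of the 37 tested collagen genes, 4 sarcoma mice over 9 marrows, by class and colour, with bars for the standard error. Filled points passed an adjusted p of 0.05 and open points did not, the solid line marks 0 and the dotted line the median of all genes tested, 0.07; the 16 filled points lie between 4.86 and 10.28.

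By median over the 4 sarcoma mice, the fibrillar class gave the most abundant collagen transcripts. In sarcoma 1268_1270, however, Col4a1 (1589 CPM) and Col4a2 (1412 CPM) were above every fibrillar gene. Of the 11 fibrillar genes 4 rose: Col3a1, Col5a2, Col1a2 and Col1a1. Col3a1, the type III chain of soft and vascular tissue, had 0.0 CPM at the lowest, 0.079 at the median and 1.81 CPM at the highest of the 9 marrows. In sarcomas it had 147 CPM (948), 880.5 CPM (1267), 976 CPM (1268_1270) and 554.5 CPM (2721). The groups did not overlap, and the difference was 10.23 ± 1.18 on the log2 scale (SE, edgeR adjusted p = 0.000427). Col1a1, a chain of type I collagen and the main protein of bone and tendon, had 0.0, 7.87 and 17.9 CPM at the lowest, the median and the highest marrow, and 62.0, 603, 632 and 267 CPM in sarcomas 948, 1267, 1268_1270 and 2721. Its difference was 5.67 ± 1.13 (edgeR adjusted p = 0.00936), again with no overlap. Col1a2, the partner chain, had 0.0, 3.52 and 16.8 CPM in marrow and 69.4, 632.5, 622 and 317.5 CPM in the same sarcomas. It rose by 6.05 ± 1.30 (edgeR adjusted p = 0.0144). Among the 4 fibrillar genes that rose, these type I genes had the highest marrow levels. Col5a2, a type V chain that co-assembles with type I, had at most 1.90 CPM in marrow and 22.1, 109, 344 and 49.8 CPM in sarcomas, a rise of 8.17 ± 1.17 (edgeR adjusted p = 0.00127). Without sarcoma 1268_1270, Col1a2 lost its call.

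Compared per kilobase of the longest transcript, the order of sarcoma medians was Col3a1 at 129, Col1a2 at 87.8, Col1a1 at 73.4, Col6a1 at 13.5, Col4a1 at 12.7 and Col5a2 at 12.0 CPM per kb (4 mice). The means ± SD of the first 3 were 115 ± 67.3, 76.7 ± 50.5 and 65.9 ± 46.3 CPM per kb. Within each mouse Col3a1 was above Col1a2 in 4 of 4, by 1.34- to 2.04-fold, and above Col1a1 in 4 of 4, by 1.56- to 2.53-fold. Col1a2 was above Col1a1 in 4 of 4, by 1.09- to 1.32-fold. Over 4 mice an exact two-sided sign-flip permutation test gave p = 0.125 for each of these differences, the smallest it allows. Adjusted over the 6 pairs compared, the test gave 0.25 for each. The pairs were taken from the ranking of the same values, so the test cannot support the order. The order of Col1a1, Col6a1, Col4a1 and Col5a2 was not the same in every mouse, with the gene of the higher median ahead of its neighbour in 3 of 4. The 2 type I chains, of which the protein uses more of the first, were read at a ratio of Col1a1 to Col1a2 per length of 0.690 to 1.31 in 6 of the 7 sarcoma libraries, mouse 841 included. Tumour 1 of mouse 948 was the exception, at 0.0902, with 2.07 CPM of Col1a1 and 20.7 CPM of Col1a2, and it is a library low in long transcripts. The longest transcripts of Col1a1 and Col1a2 are 5.93 and 5.35 kb, and the part of transcript length in this ratio was not tested.

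The other 7 fibrillar genes did not pass the test. Col5a1, the type V chain that starts fibril growth, was among the most abundant collagens of marrow. It had 0.0 CPM at the lowest marrow, 7.35 at the median and 60.5 CPM at the highest, and 14.95, 81.5, 338.5 and 66.6 CPM in sarcomas 948, 1267, 1268_1270 and 2721. Marrow and sarcoma overlapped, since 4 of the 9 marrows were above sarcoma 948, and the difference was 2.77 ± 1.27 (edgeR adjusted p = 0.349). Col11a2, a type XI chain known from cartilage, was the one collagen read in all 9 marrows. It had 1.32 CPM at the lowest, 11.5 at the median and 31.7 CPM at the highest marrow, and 7.34, 18.9, 1.08 and 60.0 CPM in sarcomas 948, 1267, 1268_1270 and 2721. The log2 difference was 0.93 ± 0.83 (edgeR adjusted p = 0.787), and its lowest sarcoma was 1268_1270, opposite to most other collagens. It turned to -0.26 without sarcoma 2721. Col11a1, its partner chain, was near 0 in marrow, at most 0.474 CPM, and had 1.01, 7.65, 0.0863 and 3.18 CPM in sarcomas, which fell just short of the threshold at 5.08 ± 1.38 (edgeR adjusted p = 0.0502). Col5a3 had 4.60 ± 1.61 (edgeR adjusted p = 0.152) and 429 CPM in sarcoma 1268_1270 against at most 28.8 in the others. Col2a1, the cartilage fibril chain, was not called at -2.04 ± 1.53 (edgeR adjusted p = 0.706), with at most 0.417 CPM in any of the 4 sarcomas. The remaining 2, Col24a1 and Col27a1, had 0.129 to 5.004 CPM in sarcomas and read 0 in 5 and 4 marrows.

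The basement membrane class had 4 of its 6 tested genes rise, Col4a1, Col4a2, Col15a1 and Col18a1, and sarcoma 1268_1270 held the highest value of all 8. Col4a1, a chain of the common type IV heterotrimer, had 0.0, 2.42 and 8.06 CPM at the lowest, median and highest marrow and 33.6, 107, 1589 and 61.6 CPM in sarcomas 948, 1267, 1268_1270 and 2721. Its difference was 7.45 ± 1.17 (edgeR adjusted p = 0.00216), and the groups did not overlap. Col4a2, its partner, had 0.0, 1.12 and 15.3 CPM in marrow and 16.3, 79.3, 1412 and 40.4 CPM in sarcomas, a rise of 7.26 ± 1.41 (edgeR adjusted p = 0.008). The per-length ratio of Col4a1 to Col4a2 was 1.10 to 3.21 over the sarcoma libraries. Their gene spans overlap in the annotation, and the sources used here do not say whether counting used strand, so a read in the shared stretch could belong to either. Col15a1, a basement membrane linker of muscle and vessels, had at most 2.63 CPM in marrow and 4.03, 26.2, 776 and 13.9 CPM in sarcomas (8.57 ± 1.64, edgeR adjusted p = 0.00725). Col18a1, which carries the endostatin fragment, had at most 1.33 CPM in marrow and 2.70, 15.7, 276 and 6.54 CPM in sarcomas (8.66 ± 1.52, edgeR adjusted p = 0.00438). Both were higher in every sarcoma mouse than in every marrow. Tumour 1 of mouse 948 on its own, at 0.936 and 0.195 CPM, was below the highest marrow for both. Without sarcoma 1268_1270, Col4a2, Col15a1 and Col18a1 lost their calls and Col4a1 kept its call. DESeq2 gave no adjusted p for any of these 4 genes, so it neither kept nor lost their calls.

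Among the chains of the other type IV heterotrimers, Col4a3 and Col4a4, which are typical of the kidney filter, were tested and not called at 0.54 ± 1.52 and 3.49 ± 1.497. Their gene spans also overlap. Col4a5 and Col4a6 did not pass the filter. Col4a5 had 0 counts in all 9 marrows, which at 3 counts over the group allows 0.0152 CPM, and its sarcoma mean of 3.64 CPM is thus at least 240.2-fold higher. In the individual sarcomas it was 2.73, 0.298, 9.96 and 1.58 CPM. Without 1268_1270 the mean is 1.54 CPM and the bound 101-fold, and for sarcoma 1267 alone the bound is 19.6-fold. Col4a6 had at most 0.128 CPM in marrow and 11.2 CPM in 1268_1270.

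**Figure D3:**
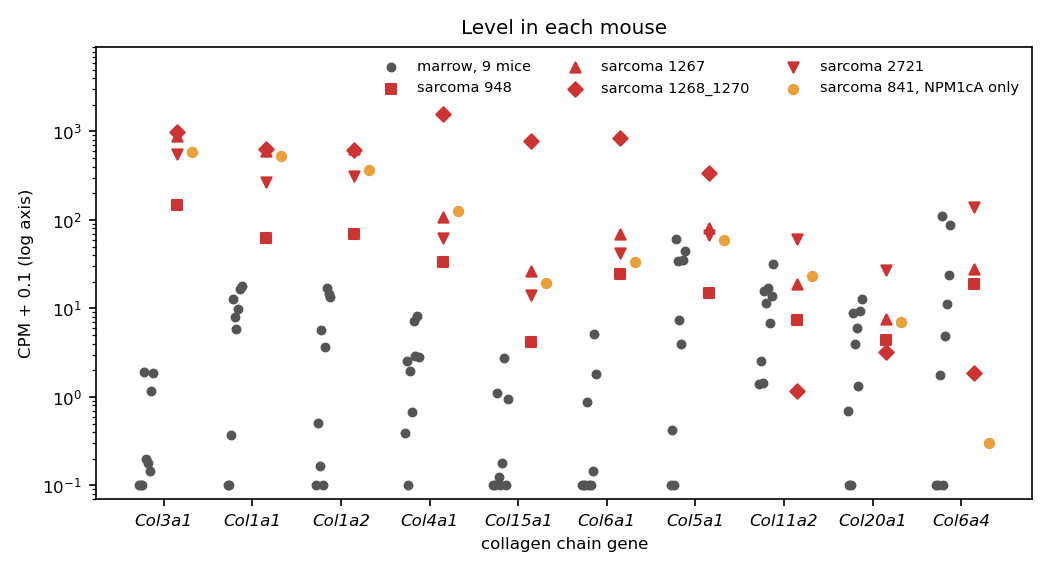
CPM plus 0.1 of 10 collagen genes in each mouse, on a log axis; grey circles are the 9 marrows, red symbols the 4 SMC3+/- sarcoma mice and orange circles the sarcoma of mouse 841. The 6 genes on the left separate the tissues, while Col5a1, Col11a2, Col20a1 and Col6a4 overlap.

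Of the 9 network-forming genes, 4 rose: Col6a1, Col6a2, Col6a3 and Col8a1. The first 3 encode the classical type VI chains. Col6a1 had 0.0 CPM at the lowest and the median marrow and 5.08 CPM at the highest, and 24.4, 69.0, 839 and 41.6 CPM in sarcomas 948, 1267, 1268_1270 and 2721 (8.35 ± 1.55, edgeR adjusted p = 0.00623). Col6a2 followed it, with at most 1.04 CPM in marrow and 14.3, 67.7, 771 and 31.3 CPM in sarcomas (10.28 ± 1.41, edgeR adjusted p = 0.00107). Neither pair of groups overlapped, and the lowest sarcoma in both was mouse 948, whose tumour 1 is low in long transcripts. Col6a3, the longest of the 3 chains, had 0.0, 1.66 and 11.8 CPM in marrow and 8.99, 76.1, 204 and 28.4 CPM in sarcomas. Its difference was 4.86 ± 1.25 (edgeR adjusted p = 0.0385), and sarcoma 948 was below the highest marrow. Col8a1, of the hexagonal lattice under endothelium and in the eye, had at most 1.501 CPM in marrow and 1.41, 48.2, 4.83 and 10.6 CPM in sarcomas (6.26 ± 1.43, edgeR adjusted p = 0.0201). Unlike Col6a1 to Col6a3 it was highest in sarcoma 1267, and like Col6a3 it overlapped in mouse 948. Without sarcoma 1268_1270, Col6a1, Col6a3 and Col8a1 lost their calls, and without the libraries low in long transcripts Col6a3 and Col8a1 did. Col6a3 also lost it on total counts without TMM and without marrow 782, 919, 1103 or 1267 or sarcoma 1267, and Col8a1 without sarcoma 1267. DESeq2 gave no adjusted p for Col6a1 and Col6a2.

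Col6a4, a further type VI chain, had its lowest sarcoma level where Col6a1 to Col6a3 had their highest, and was not called at 0.89 ± 1.54 (edgeR adjusted p = 0.946). It had 0.0 CPM at the lowest marrow, 4.78 at the median and 110 CPM at the highest, and 18.8, 27.6, 1.77 and 140 CPM in sarcomas 948, 1267, 1268_1270 and 2721. Marrows 919 and 3332, with 110 and 87.0 CPM, were above 3 of the 4 sarcomas, and 3 marrows read 0. Without sarcoma 2721 the log2 difference was -0.56. The neighbouring Col6a5 and Col6a6 were not called either. Col6a5 had at most 2.49 CPM in any of the 13 mouse samples tested, and Col6a6 ranged from 0.37 to 82.0 CPM over the 4 sarcomas and from 0.0 to 19.6 CPM over marrows. Col8a2 had 4.28 ± 1.44 (edgeR adjusted p = 0.134) and was highest, at 16.7 CPM, in 1268_1270. Col10a1, the hypertrophic cartilage chain, was not called at -1.22 ± 1.64 (edgeR adjusted p = 0.904), and its gene overlaps Nt5dc1.

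In the last class, 4 of the 11 tested genes rose: Col14a1, Col16a1, Col12a1 and Col28a1. The first 3 belong to the fibril-associated collagens, which sit on the surface of fibrils. Col14a1 had at most 0.277 CPM in marrow and 1.78, 10.5, 113 and 15.4 CPM in sarcomas 948, 1267, 1268_1270 and 2721, a rise of 8.71 ± 1.16 (edgeR adjusted p = 0.000913). Col16a1 had at most 0.988 CPM in marrow and 3.79, 17.8, 91.9 and 12.1 CPM in sarcomas (7.10 ± 1.17, edgeR adjusted p = 0.00283). Col12a1 had 0.0 CPM at the median marrow and 1.90 CPM at the highest, and 16.1, 34.8, 20.8 and 50.3 CPM in sarcomas (6.22 ± 1.19, edgeR adjusted p = 0.00708). None of the 3 overlapped between tissues. Of the 3, Col12a1 was the one highest in mouse 2721 and not in 1268_1270, with a mean of 30.5 ± 15.4 CPM (SD, n = 4). Col28a1, a von Willebrand domain chain, was sparse: 8 of 9 marrows read 0, marrow 1103 had 0.434 CPM, and the sarcomas had 0.318, 1.46, 6.08 and 1.01 CPM. It was called at 5.50 ± 1.48 (edgeR adjusted p = 0.049), close to the threshold, and marrow 1103 was above sarcoma 948. Without sarcoma 1268_1270 both Col28a1 and Col16a1 lost their calls. Col28a1 also lost it by DESeq2, on total counts without TMM, and when the 4 libraries with few long transcripts, or marrow 737, 779, 782, 949, 1267 or 2721 or sarcoma 948, were left out.

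The other 7 tested genes of the class were not called. Col20a1, a fibril-associated chain, was one of the few with reads in most marrows, with 0.0 CPM at the lowest, 3.84 at the median and 12.7 CPM at the highest. The sarcomas had 4.29, 7.44, 3.11 and 27.3 CPM (1.22 ± 1.14, edgeR adjusted p = 0.806), inside the marrow range except in 2721. Col7a1, the anchoring fibril of skin, ranged from 0.82 to 9.47 CPM over sarcomas and from 0.0 to 5.05 CPM over marrows. Col9a1, Col9a3, Col17a1, Col19a1 and Col23a1 had sarcoma maxima of 1.75, 4.27, 0.833, 1.93 and 10.1 CPM. Col9a2, Col13a1, Col22a1, Col25a1 and Col26a1 did not pass the filter, and each was at most 1.13 CPM in every one of the 4 sarcomas. Over the whole class 10 of 16 genes read 0 in at least 5 marrows.

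**Figure D4:**
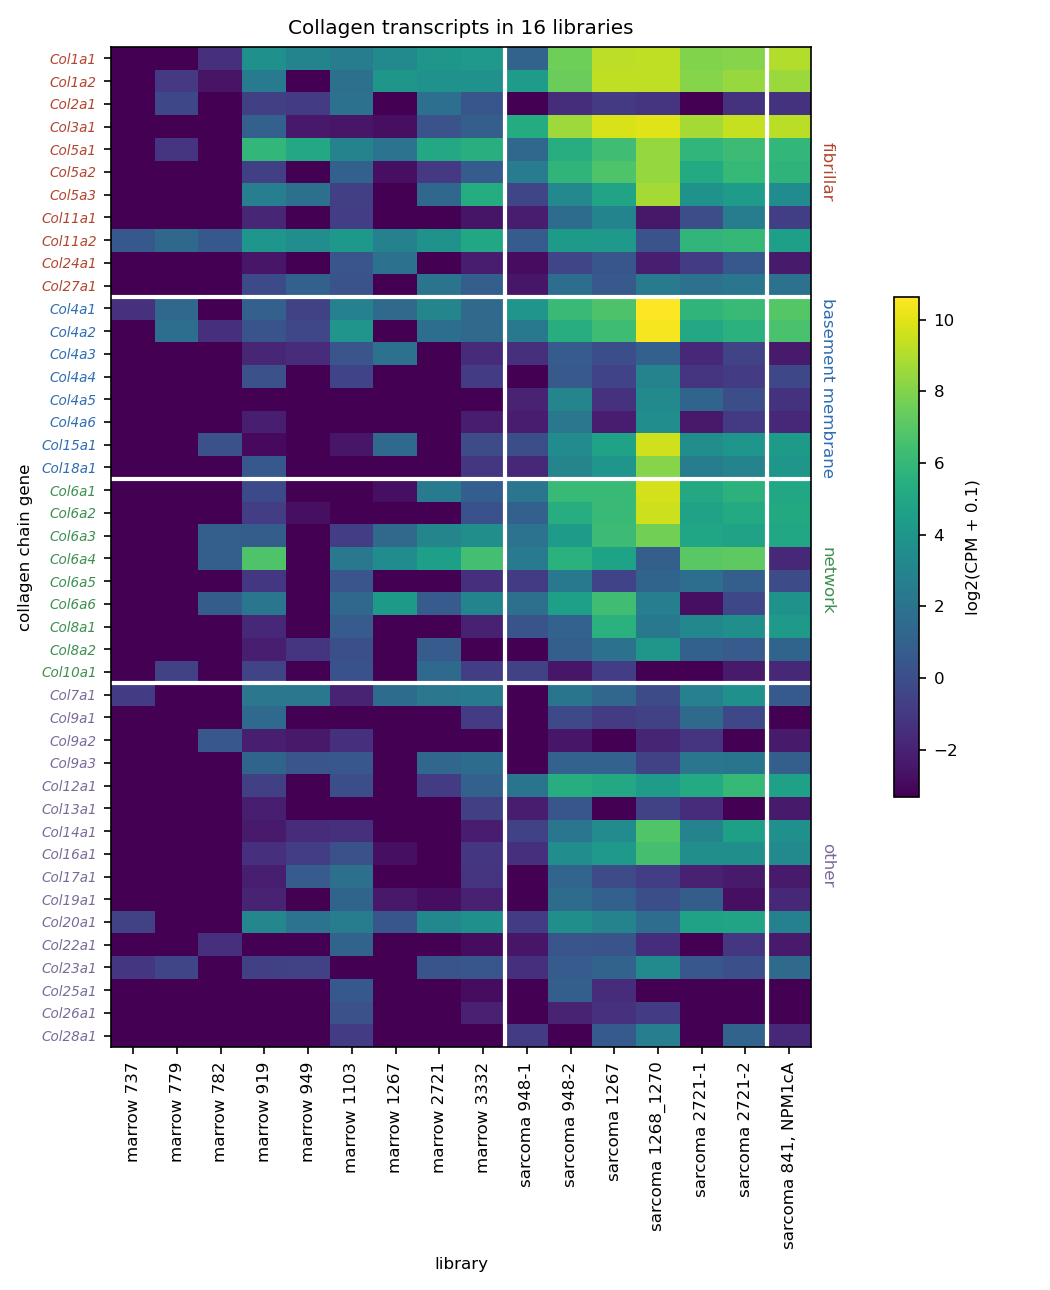
Level of all 44 collagen genes in the 16 libraries as log2(CPM + 0.1), rows grouped by class and white lines between tissues and classes. Most rows are dark in marrow, Col1a1, Col1a2, Col3a1, Col4a1, Col4a2 and Col6a1 to Col6a3 are bright in most sarcoma libraries, and marrows 737, 779 and 782 are dark in most rows.

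The most abundant collagens of marrow were mostly chains that were not called. Per kilobase, the highest marrow medians were Col11a2 at 1.90, Col1a1 at 1.33, Col5a1 at 0.874, Col20a1 at 0.765, Col1a2 at 0.657 and Col6a4 at 0.648 CPM per kb. The SDs over marrows ranged from 0.935 to 5.70 CPM per kb, and none of the 5 neighbouring pairs passed an exact two-sided sign-flip permutation test within marrows (p from 0.0859 to 0.746, adjusted over the 5 from 0.221 to 0.746). These pairs too were taken from the ranking of the values tested. In 6 of the 7 sarcoma libraries the single highest collagen was Col3a1, with 27.5% to 32.03% of the collagen sum. In the marrows the highest was Col6a4, Col5a1 or Col11a2 in 6 of 9, and Col4a2, Col6a3 or Col6a6 in the other 3. Fibrillar chains made up 46.4 ± 16.7% of the collagen CPM in marrow (SD, n = 9) and 62.6 ± 19.0% in sarcomas (SD, n = 4), a difference within the spread. The share of network chains was 24.5 ± 20.5% and 15.4 ± 3.1%.

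Sarcoma 1268_1270 had a different collagen make-up from the other sarcomas. Basement membrane chains were 42.9% of its collagen CPM, against 6.68% to 18.8% in the other 6 sarcoma libraries, and fibrillar chains 35.1%, against 58.7% to 78.0%. Measured against the median of the other 3 SMC3+/- sarcoma mice, Col15a1 was 55.8-fold, Col4a6 45.3-fold, Col18a1 42.3-fold, Col4a2 34.9-fold, Col4a1 25.8-fold, Col6a2 24.7-fold and Col5a3 24.5-fold higher there. The interstitial Col1a1, Col1a2 and Col3a1 differed by 2.36-, 1.96- and 1.76-fold. Col11a1, Col11a2 and Col6a4 were at 0.0271, 0.0572 and 0.0641 of that median. The library that stands apart is also the one with the adipocyte markers described above, and the part of these cells in the result was not tested. Its endothelial marker sum was 527 CPM, against 92.5 to 384 CPM in the other 6 sarcoma libraries and at most 188 CPM in marrow. Its fibroblast marker sum, 3384 CPM, was not the highest. Tumour 2 of mouse 948 had 4123 CPM, and marrows 2721 and 3332 had 6618 and 4342 CPM. Of the 11 fibroblast markers 7 (Pdgfra, Dcn, Lum, Dpt, Mfap5, Fbln2 and Postn), or 63.6%, were higher in every sarcoma mouse than in every marrow, where 3.82% of all genes tested were. This share describes the list and supports nothing about it, because Mfap5, Lum and Dpt read 0 in most marrows. Such genes could pass the filter mainly through the sarcomas. The groups overlapped for the other 4, Pdgfrb, Fn1, Fap and Thy1. Fn1, the matrix glycoprotein fibronectin, was highest in marrow, with 6548 CPM in marrow 2721, 4298 in marrow 3332 and 2758 in marrow 1103, against 165 to 1173 CPM in the 4 sarcoma mice. It thus made up most of the marker sum in marrows 2721 and 3332. Fn1 and Thy1 had 1173 and 482 CPM in mouse 948, with its tumours summed, against 443 and 48.4 CPM in 1268_1270. All of the 11 but these 2 were highest in 1268_1270 among the 4 sarcoma mice. Dpt had 652 CPM there against at most 28.7 CPM in the others, while Postn was nearly level with 1267, at 112 and 110 CPM. None of the 11 read 0 in all marrows. Dcn, the proteoglycan decorin that binds collagen fibrils, had 109, 52.4, 1470 and 122 CPM in sarcomas 948, 1267, 1268_1270 and 2721 and at most 2.02 CPM in marrow.

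Most collagens were higher in the sarcoma than in the marrow of the same mouse. In mouse 1267, 39 of the 44 genes were higher in the sarcoma than in the marrow and 3 were lower. In mouse 2721 the counts were also 39 and 3, and the median differences on log2(CPM + 0.1) were 3.75 and 2.66. In mouse 1267 the genes lower in sarcoma were Col24a1, Col4a3 and Col7a1. In mouse 2721 they were Col2a1, Col10a1 and Col6a6. Long transcripts were lower in marrow 1267 than in sarcoma 1267, with deviations of -0.92 and -0.02, and their part was not tested. Between the 2 tumours of mouse 2721 the median difference, tumour 1 minus tumour 2, was -0.38. In mouse 948, tumour 1 was lower than tumour 2 in 42 of 44 genes, at a median difference of -3.32, and Col3a1 had 37.9 CPM in tumour 1 and 379 CPM in tumour 2. That tumour 1 also had 2246 CPM of the skeletal muscle markers, against 20.3 CPM in tumour 2, and was low in long transcripts. Their part in the difference was not tested. Shares over all genes were not computed for these within-mouse counts, so the counts describe the collagens only.

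The sarcoma of mouse 841, labelled NPM1cA without SMC3+/-, was described beside the others and not tested, since it is a single tumour. Its collagen sum was 2088 CPM, and fibrillar chains made up 78.0% of it. Of the 44 genes 36 lay inside the range of the 4 SMC3+/- sarcoma mice, 8 below it and 0 above it. The 4 furthest below were Col6a4, Col9a1, Col19a1 and Col4a3. Col6a4 had 2 counts in mouse 841, or 0.204 CPM, against at least 1.77 CPM in the SMC3+/- mice. Each of the 8 had 0, 1 or 2 counts in mouse 841, the shallowest library, where 3 counts are 0.306 CPM. Col3a1, Col1a1 and Col1a2 had 580, 530.0 and 365 CPM there, inside the range.

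Some genes that make and process collagen rose as well. Of 32 listed genes of collagen synthesis present among the symbols, 30 were tested, 10 rose and 0 fell (0 also lower at an unadjusted p under 0.05 in edgeR, and 0 by DESeq2 and limma-voom), which is 33.3% where 4.49% of all genes were called higher, and the median log2 fold change was 2.37. These shares describe the list and support nothing about it, because the mean over marrows was below 1 CPM for 13 of the 30 and for 9 of the 10, all but Pcolce, so that such a gene could pass the filter mainly through the sarcomas. The chaperone Serpinh1, also called HSP47, which binds procollagen in the endoplasmic reticulum, had at most 1.74 CPM in marrow and 24.6, 82.6, 631 and 37.7 CPM in sarcomas 948, 1267, 1268_1270 and 2721 (8.22 ± 1.17, edgeR adjusted p = 0.00123). The cross-linking oxidases Lox and Loxl1 rose by 7.34 ± 1.07 and 7.52 ± 1.28. Lox had at most 1.74 CPM in marrow and 35.9, 70.6, 180 and 84.4 CPM in sarcomas. The proline and lysine hydroxylases P4ha2 and Plod2 rose by 7.04 ± 1.42 and 7.35 ± 1.25, and the related Leprel4 by 6.31 ± 1.32. The procollagen proteases Bmp1 and Tll1 rose by 5.18 ± 1.35 and 7.88 ± 1.26, and the enhancers Pcolce and Pcolce2 by 3.57 ± 0.89 and 11.66 ± 1.32. Pcolce2 had 2.25, 3.45, 150 and 3.75 CPM in sarcomas 948, 1267, 1268_1270 and 2721 and at most 0.051 CPM in marrow, so 94.1% of its sarcoma mean lay in 1268_1270, without which its fold change was 7.999 on the log2 scale. Tll1 had 0 counts in all marrows, so its sarcoma mean of 1.065 CPM is at least 70.25-fold above 3 counts over the group, and the fitted value is no bound. In contrast, P4hb, the shared subunit of the prolyl hydroxylases, and the isomerase Ppib, which are used by many secretory proteins, were abundant in both tissues and not called, at -0.21 ± 0.51 and -0.22 ± 0.48. Without sarcoma 1268_1270, 5 of the 30 were called (16.7%, with 1.13% of all genes), and with the mouse as a replicate block 2 (6.67%, with 0.883% of all genes).

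Among the collagen receptors Mrc2, Mrc1 and Itga11 rose. Of 11 listed genes among the symbols, 10 were tested, and these 3 are 30.0% of them, at a median log2 fold change of 1.58. Over all genes 4.49% were called higher, and the same limit holds, since the mean over marrows was below 1 CPM for 2 of the 3, Mrc2 and Itga11. The endocytic receptor Mrc2, which takes up collagen fragments, had at most 3.39 CPM in marrow and 3.90, 17.3, 90.2 and 13.6 CPM in sarcomas (5.71 ± 1.46, edgeR adjusted p = 0.037). The macrophage mannose receptor Mrc1 rose by 3.21 ± 0.78 (edgeR adjusted p = 0.0267) and the integrin Itga11, a fibroblast receptor for type I collagen, by 5.68 ± 1.31 (edgeR adjusted p = 0.0215). Itgb1, the beta chain shared by the collagen-binding integrins, and Lair1, an inhibitory leukocyte receptor for collagen, were not called at 0.99 ± 0.34 and -0.47 ± 0.56 (edgeR adjusted p = 0.144 and 0.883). In edgeR 0 receptors were called without sarcoma 1268_1270, with 3 at an unadjusted p under 0.05, and 0 without the libraries low in long transcripts, with 6. Other tools were run on the full set of samples only, where DESeq2 and limma-voom each called 3.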

How the data were processed

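The deposited table holds raw counts for 23999 gene symbols in 16 libraries, made by the authors. Per the submitters' processing notes, STAR, DESeq, DESeq2 and mm9 were used, with no version given. The sources used here do not state the gene annotation or the strand setting. Per the labels' protocols, poly(A) RNA was used, tumours went straight into Trizol, and marrow was crushed, filtered and cleared of red cells first, so handling and tissue went together.

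Libraries of 1 mouse and tissue were summed (14 samples). CPM are on total counts. Groups were compared with edgeR 4.0.16 under R 4.3.3 (TMM, filterByExpr, robust quasi-likelihood test, two-sided, Benjamini-Hochberg over 14730 genes, calls at 0.05), with 4 sarcoma mice and 9 marrows, mouse 841 left out. The SE is the log2 fold change over the root of F and is approximate. The code was tested on simulated data. The 2 tumours of mouse 2721 were the closest libraries and differed beyond sampling noise. Counts have no molecular identifiers, so floors cover counting error only. Nothing in the labels says that sarcoma 1268_1270 is 1 animal. Transcript lengths came from GENCODE M21 on a later build, matched by symbol for all 44 genes. Of the members, 6 overlap another protein-coding gene in RefSeq (Col4a1 with Col4a2, Col4a3 with Col4a4, Col9a3 with Tcfl5, Col10a1 with Nt5dc1).

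Members, classes, lists and alternatives were chosen with earlier results of these data known. Values are given per mouse for called members and for the 3 of each class with the highest mean CPM, with Col5a1, Col5a3, Col11a1, Col11a2, Col20a1, Col2a1 and Col10a1 added after their values were seen. Of the synthesis and receptor lists, called genes and the 2 with the highest mean CPM not called are named. Of mouse 841, the 4 members furthest outside the range on each side are named. The labels give both tissues for mice 1267 and 2721, so these samples are paired by animal, with same-mouse deviations correlated at 0.29 and 0.21. Alternatives were DESeq2 1.42.0, limma-voom (limma 3.58.1), other scalings and filters, tumours kept apart, a mouse block (with tumours summed or apart), and libraries left out.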

Additional observations from a re-analysis of the deposited data

Results flagged for a closer look

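Among 24 collagens, with CPM compared within 4 sarcoma mice and within 9 marrows, 21 of 48 sets had a sample far from the others, where chance gives about 1 in 20. CPM are skewed, and on log2(CPM + 0.1) 2 of the 48 sets had such a sample.

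All 9 sarcoma values so marked were the highest and came from sarcoma 1268_1270. They were Col4a1 (1589 CPM, next highest 107), Col4a2 (1412, next 79.3), Col15a1 (776, next 26.2), Col18a1 (276, next 15.7), Col6a1 (839, next 69.0), Col6a2 (771, next 67.7), Col14a1 (113, next 15.4), Col16a1 (91.9, next 17.8) and Col5a3 (429, next 28.8). That library also held the adipocyte markers, whose part was not tested.

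The 12 marrow values were spread over 5 mice. In marrow 1103 they were Col4a2 (15.3 CPM), Col8a1 (1.501), Col16a1 (0.988), Col28a1 (0.434) and Col11a1 (0.474). In marrow 3332 they were Col5a3 (39.7), Col12a1 (1.90) and Col6a2 (1.04), in marrow 2721 Col6a1 (5.08) and Col10a1 (2.67), in marrow 1267 Col15a1 (2.63), and in marrow 919 Col18a1 (1.33).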

How the results depend on the processing

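Every called collagen stayed higher in sarcomas under every alternative that gave it a value, and the limits are those of 4 sarcoma mice. Scaling to pan-leukocyte genes gave 26 collagen, 27 synthesis, 7 receptor and 7516 calls over all genes, and turned Col2a1 to 0.28, P4hb to 0.96, Ppib to 1.12 and Lair1 to 0.31. No filter on low counts gave 1368 calls over all genes. With the mouse as a replicate block, which leaves 1 residual degree of freedom, 9 collagens, 2 synthesis genes and 130 of all genes were called, with Ppib at 0.11, Itgb1 at -0.16 and Lair1 at 0.51. With mice 1267 and 2721 alone and the replicate block, a choice added after the data were seen, the counts were 10, 1 and 114, with Ppib at 0.15, Itgb1 at -0.12 and Lair1 at 0.54. With the block and the tumours of a mouse kept apart, also added later, 0 collagens (17 at an unadjusted p under 0.05), 0 synthesis genes (10), 0 receptors (3) and 0 of all genes (1611) were called by edgeR, with P4hb at 0.11, Ppib at 0.38 and Lair1 at 0.65. These blocks changed no other direction among the named genes.

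Without the libraries low in long transcripts, 303 of all genes and 0 receptors were called, with P4hb at 0.0063 and Lair1 at 0.10. Without these and sarcoma 1268_1270, also added later, 62 of all genes, 7 collagens, 3 synthesis genes and 0 receptors were called, with P4hb at 0.24, Ppib at 0.16 and Lair1 at 0.45. Leaving out 1 mouse at a time gave 170 to 765 calls over all genes, 7 to 16 collagens, 5 to 11 synthesis genes and 0 to 4 receptors, the lowest in each case without sarcoma 1268_1270. Over these fits Col11a2 ranged from -0.26 to 1.40, Col6a4 from -0.56 to 1.67, P4hb from -0.55 to 0.052 and Ppib from -0.44 to 0.013. DESeq2 gave no adjusted p for 6 of the 16 collagens, namely Col4a1, Col4a2, Col15a1, Col18a1, Col6a1 and Col6a2. It kept 9 and lost Col28a1, and total counts without TMM lost Col6a3 and Col28a1. Of all 44 collagens, 21 read 0 in at least 5 marrows, which limits what their folds can show.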
